A study of Mus musculus with 6 samples.

Results

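Respiratory chain genes encode the subunits of the enzyme complexes that make most of a neuron's ATP. The set was taken by gene symbol: names that begin as those of the NADH dehydrogenase (Nduf), succinate dehydrogenase (Sdh), cytochrome c reductase (Uqcr), cytochrome c oxidase (Cox4 to Cox8) and ATP synthase (Atp5) genes, with Cyc1, Cycs and Usmg5 added. This gave 88 of the 24946 named genes in the files. Of these, 35 belong to complex I, 4 to complex II, 9 to complex III, 1 is cytochrome c, 19 belong to complex IV and 17 to complex V. The remaining 3, Atp5s, Cox7a2l and Ndufb4c, carry a matching name without being a standard subunit and are given apart. Ndufa4 and its paralog Ndufa4l2 were counted under complex IV, where the protein of Ndufa4 is now placed, and Ndufab1, a subunit of complex I whose symbol the pattern misses, is given beside the set.

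The chain sits in the inner mitochondrial membrane. Complex I takes electrons from NADH and complex II from succinate, both pass them to ubiquinone, complex III hands them to cytochrome c, and complex IV passes them to oxygen, while complexes I, III and IV pump protons that complex V uses to make ATP. A few subunits of complexes I, III, IV and V are made from mitochondrial DNA, and the nuclear genes described here encode the rest, of which some form the catalytic core and many are small supernumerary proteins. Neurons depend on this pathway to restore ion gradients after firing.

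The libraries came from viral-TRAP, in which a virus gives Cre-expressing cells an EGFP-tagged ribosomal protein L10a, so that an antibody against EGFP pulls down their ribosomes with the mRNA on them. The IP group holds 3 libraries of RNA pulled down in this way from lateral septum tissue of Nts-Cre mice, and the Input group holds 3 libraries of RNA saved from the same homogenates before the antibody was added. Both groups therefore share the Nts-Cre allele, the virus (AAV5-Introvert-NBL10 in the labels, AAV5-Introvert-GFPL10a in the study's methods) and the tissue, and no group without Cre or without virus was analysed here. Each number marks 1 pool of 4 to 6 adult mice, killed 3 or 4 weeks after injection. The study used Nts-Cre mice of both sexes, and its methods do not state their split between the pools. Tagged cells are those in which the neurotensin gene's promoter drives Cre and which the virus reached, so IP and Input differ both in the cells sampled and in the selection for RNA on ribosomes, and these cannot be told apart in this design. In bulk RNA, fewer cells of a type and less RNA per cell cannot be told apart either.

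Values are the authors' normalised read counts (counts divided by DESeq2 factors, not logged), and a library's values added up to between 22781827 and 24958423 in IP and between 16828024 and 17129150 in Input. All 6 marker genes of the lateral septum (Zic1, Zic2, Trpc4, Dgkg, Sst and Nts) were higher in IP. Their summed share of library values was 0.136% to 0.139% in IP against 0.0393% to 0.0411% in Input. The list is no independent check, because the Nts promoter drives Cre and the study had reported Nts and Sst as enriched in IP. Zic1, Zic2, Trpc4 and Dgkg had log2 fold changes of 2.24, 1.89, 2.13 and 1.94. Markers of astrocytes (12 of 12), oligodendrocytes (11 of 11) and microglia (12 of 12) were lower in IP, with summed shares of 0.0554% to 0.0815%, 0.0585% to 0.102% and 0.00357% to 0.00659% in IP against 0.319% to 0.383%, 0.62% to 0.882% and 0.0264% to 0.0393% in Input. Of the markers tested, 4 of 8 endothelial, 5 of 10 mural and 2 of 4 erythroid genes were lower in IP and none was higher, and 13 of 16 pan-neuronal and 7 of 8 GABAergic genes were higher, with 1 lower in each list. At equal library totals 7 of the pan-neuronal genes were higher and 4 lower, and the summed share of the GABAergic genes overlapped, at 0.151% to 0.162% in IP against 0.141% to 0.159% in Input. Input therefore held more glial RNA than IP, and the part of this difference in the fold changes below was not tested.

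Many respiratory chain promoters carry sites for the transcription factor NRF1, so the promoter letters of the set were searched. RefSeq (GRCm38.p6) gave at least 1 promoter window of 300 bases, from 250 before to 50 after an annotated start, for 70 of the 88 genes. A gene was counted if any of its windows held the letters. The letters GCGCANGCG, searched on both strands, were present for 21 of the 70 genes (30.0%), against 14.1% of 11610 tested genes and 7.0% of 27025 genes in all. They were found for 8 of 31 genes of complex I, 2 of 3 of complex II, 2 of 5 of complex III, 1 of 13 of complex IV and 7 of 15 of complex V. For the ETS letters CCGGAAG, which the factor GABP recognises, the shares were 24.3% of the set and 18.1% of tested genes. For the YY1 letters AAGATGGC they were 14.3% and 4.8%, and for the oestrogen-related receptor letters TCAAGGTCA 2.9% and 0.4%. A match describes the letters only and shows neither binding nor a cause.

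The following 250 bases before the annotated start were chosen as those of the gene with the largest fold change in its complex among those holding the NRF1 letters there, with cytochrome c added; complex III gave none, because in both of its windows with the letters each match ran past the start or lay after it. Capitals mark each NRF1 match on either strand. They run 5′ to 3′ on the minus strand, and the positions are chr16:37654369-37654618 for Ndufb4 (complex I), chr9:50603850-50604099 for Sdhd (complex II), chr6:50566570-50566819 for Cycs (cytochrome c), chr5:115348959-115349208 for Cox6a1 (complex IV) and chr9:44920743-44920992 for Atp5l (complex V).
Ndufb4: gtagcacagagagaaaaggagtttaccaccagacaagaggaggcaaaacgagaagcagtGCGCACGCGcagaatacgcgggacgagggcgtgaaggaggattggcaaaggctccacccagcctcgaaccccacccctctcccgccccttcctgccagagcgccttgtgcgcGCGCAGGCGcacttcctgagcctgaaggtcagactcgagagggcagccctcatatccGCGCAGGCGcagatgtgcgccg
Sdhd: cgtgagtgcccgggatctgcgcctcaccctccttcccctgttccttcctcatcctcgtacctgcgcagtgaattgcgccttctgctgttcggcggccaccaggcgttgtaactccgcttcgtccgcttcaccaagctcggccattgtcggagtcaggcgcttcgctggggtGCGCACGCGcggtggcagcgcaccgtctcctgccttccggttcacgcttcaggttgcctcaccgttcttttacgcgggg
Cycs: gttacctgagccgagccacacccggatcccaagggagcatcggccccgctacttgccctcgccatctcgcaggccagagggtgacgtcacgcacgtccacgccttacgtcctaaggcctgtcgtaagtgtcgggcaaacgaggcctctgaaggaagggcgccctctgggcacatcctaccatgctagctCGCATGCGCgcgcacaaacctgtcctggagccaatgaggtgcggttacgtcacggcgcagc
Cox6a1: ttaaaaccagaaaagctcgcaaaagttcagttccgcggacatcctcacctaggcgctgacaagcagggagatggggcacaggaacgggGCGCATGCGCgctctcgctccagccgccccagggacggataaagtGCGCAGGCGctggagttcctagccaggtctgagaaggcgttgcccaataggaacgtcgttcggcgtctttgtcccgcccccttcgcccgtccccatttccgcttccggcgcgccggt
Atp5l: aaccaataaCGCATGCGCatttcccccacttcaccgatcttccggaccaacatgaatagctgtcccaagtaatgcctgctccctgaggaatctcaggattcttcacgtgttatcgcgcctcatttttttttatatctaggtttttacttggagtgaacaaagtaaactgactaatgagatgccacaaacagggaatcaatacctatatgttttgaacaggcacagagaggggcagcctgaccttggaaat
The window of Ndufb4 held 3 matches, whose first bases lie 191, 79 and 22 bases before the start. Cox6a1 also held 3, of which 2 overlap. The other three windows held 1 match each, in Atp5l close to the far end of the window.

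The question for the set was whether its RNAs were more or less abundant in IP than in Input. Nearly the whole chain was higher in IP. Of 86 genes tested (value of at least 10 in at least 3 libraries), 79 were higher in IP at an adjusted p under 0.05 by limma, none was lower and 7 passed in neither direction. Over all 14859 genes tested, 31.4% were higher and 32.2% were lower. More than 2-fold higher were 68 of the 86, against 12.6% of all genes tested, and more than 2-fold lower was none, against 17.2%. The median log2 fold change of the set was 1.67, with a range of -0.83 to 2.48, and that of all genes tested was -0.06. In 79 of the 86 genes every IP library lay above every Input library, against 34.2% of all genes tested. As the plot of fold changes by complex shows, the range within each of the 5 complexes was wider than the distance between their medians, which ran from 1.04 for complex II to 1.74 for complex I.

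**Figure D1:**
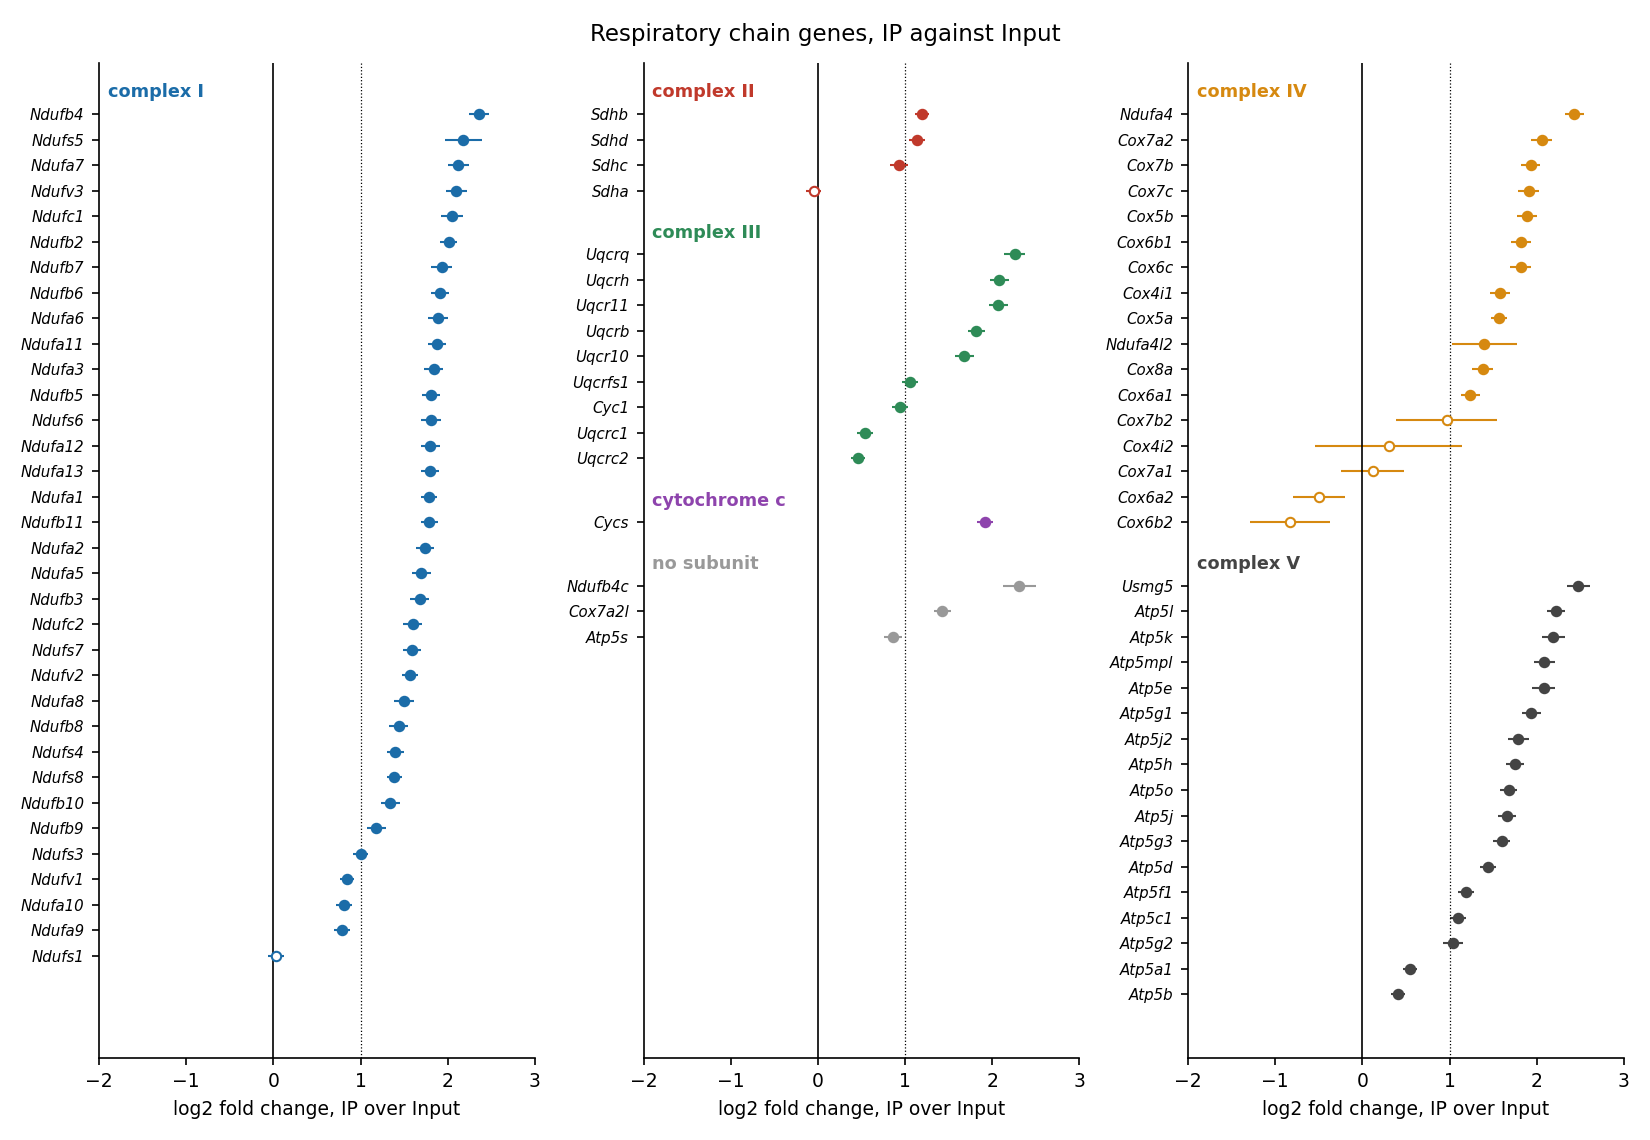
Log2 fold change of IP over Input (x axis) for 85 of the 86 tested respiratory chain genes, grouped by complex; bars are the standard error from limma, filled points passed an adjusted p under 0.05, open points did not, and the dotted line marks a 2-fold change. The 7 open points are Ndufs1, Sdha and 5 isoforms of complex IV, and the highest values are those of Usmg5 (2.48), Ndufa4 (2.43) and Ndufb4 (2.36).

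Summed over its members, the chain took 4.94%, 4.28% and 4.35% of all values in IP pools 1 to 3, against 2.44%, 2.38% and 2.35% in Input pools 1 to 3. The means were 4.53 ± 0.361% in IP and 2.39 ± 0.0453% in Input (SD, n = 3 pools each), a ratio of 1.89. A single scaling factor per library cancels in such a ratio, but factors that differ between genes would not. The ratio was 2.70 for cytochrome c, 2.40 for complex IV, 2.05 for complex I, 1.86 for complex III, 1.63 for complex V and 1.12 for complex II. Every IP library lay above every Input library for each of these 6 sums. Complex II had the nearest values, with 0.206%, 0.198% and 0.209% in IP against 0.18%, 0.182% and 0.187% in Input.

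**Figure D2:**
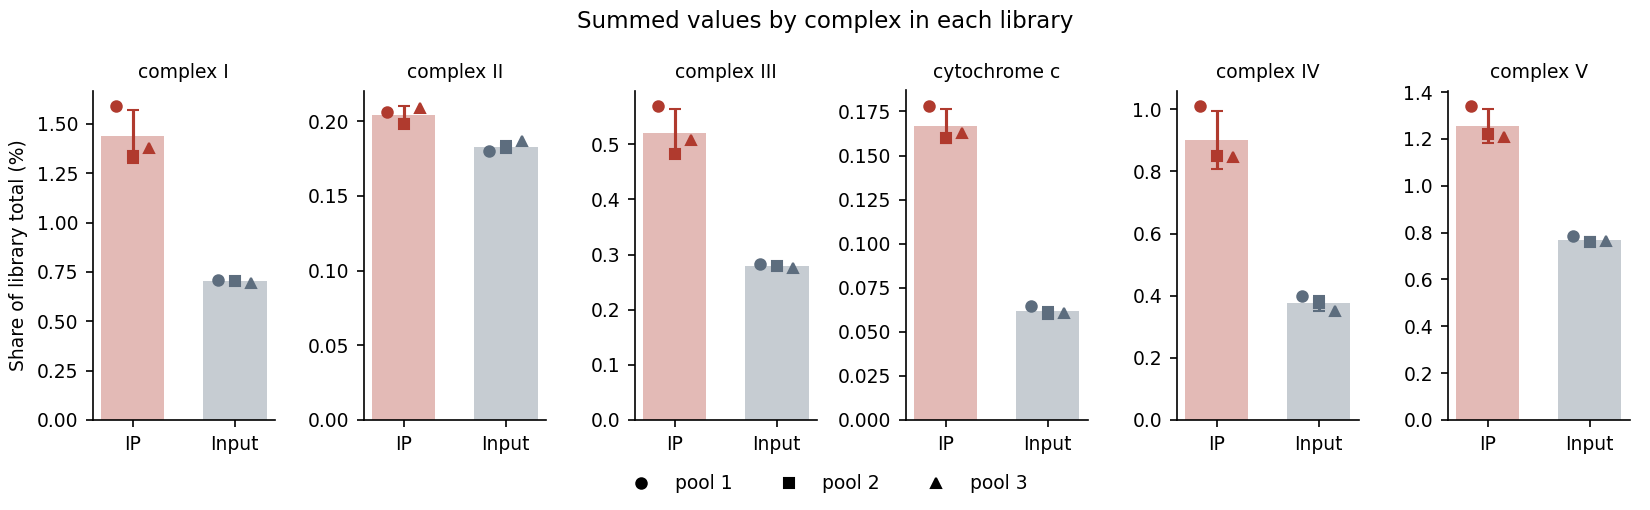
Summed value of each complex as a percent of the library total (y axis, from 0, each panel on its own scale) in IP and Input; bars are means, error bars are SD over 3 pools and symbols mark the pools. IP lies above Input in every panel, most narrowly for complex II (0.204% against 0.183%).

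Complex I was higher almost throughout. Of its 35 genes, 34 rose and 30 rose more than 2-fold, with a median log2 fold change of 1.74. The 28 supernumerary subunits, which surround the catalytic core, all rose, 26 of them more than 2-fold, with a median of 1.80 and a range of 0.79 to 2.36. Ndufb4, a supernumerary subunit of the membrane arm, had 12225, 8878 and 9364 in IP against 2078, 1818 and 1980 in Input, a log2 fold change of 2.36 with a standard error of 0.12 (adjusted p = 2.1e-08). Its lowest IP library lay more than 4 times above its highest Input library. Ndufs5, another small subunit of the membrane arm, had 1584, 1244 and 1526 in IP against 451.5, 326.7 and 216.8 in Input, a log2 fold change of 2.18 ± 0.21 (SE), with a wide spread among the Input libraries. Ndufb8 had the highest mean value of the complex over all 6 libraries, 26927, 18983 and 22281 in IP against 8400, 8510 and 7983 in Input, and a log2 fold change of 1.44. The lowest of the supernumerary subunits was Ndufa9, at 0.79 with values of 6301 to 7719 in IP and 3891 to 3999 in Input. It no longer passed when libraries were scaled on pan-neuronal genes (0.11, adjusted p = 0.367) or with an offset that removed the relation with transcript length (0.12, adjusted p = 0.135). Ndufa10 (0.81) also lost its call under pan-neuronal scaling (0.13, adjusted p = 0.282). With the transcript length offset Ndufb10 (1.34) and Ndufb9 (1.18) fell to 0.10 and -0.09 and no longer passed (adjusted p = 0.238 and 0.257). Ndufab1, the mitochondrial acyl carrier protein that is also a subunit of complex I, had 17443, 13507 and 14354 in IP against 3988, 3714 and 3975 in Input (log2 fold change 1.95).

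For the 7 nuclear-encoded core subunits of complex I, which together carry the flavin and the iron-sulfur clusters, the median was 1.00. Of these, 6 rose. Ndufs7, at the ubiquinone site, had 17894, 13535 and 14627 in IP against 4961, 5284 and 4993 in Input, a log2 fold change of 1.59. Ndufv2, an iron-sulfur subunit of the NADH-binding module, had 21775, 17466 and 19052 in IP against 6673, 6503 and 6419 in Input (1.57). These are about 3-fold differences. Ndufs8, an iron-sulfur subunit midway along the electron path, had 10809, 9016 and 9338 in IP against 3692, 3687 and 3695 in Input (1.39). Ndufs3 had 7130, 5950 and 6237 in IP against 3256, 3229 and 3135 in Input (1.00), which puts it at the 2-fold limit, and with an offset for transcript length it lay at 0.04 and no longer passed (adjusted p = 0.576). Ndufv1, which binds NADH, had 12984, 11754 and 11470 in IP against 6641, 6600 and 6810 in Input, a log2 fold change of 0.85 that was 0.17 and no longer passed when libraries were scaled on pan-neuronal genes (adjusted p = 0.154).

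Ndufs1, the largest core subunit and the holder of several iron-sulfur clusters, was the exception. It had 3325, 3425 and 3669 in IP against 3395, 3088 and 3755 in Input, and the groups overlapped. Its log2 fold change was 0.03 (standard error 0.09, adjusted p = 0.802 by limma), with a 95% interval of -0.17 to 0.23, so that a 2-fold rise lies outside the interval under the deposited scaling. The log2 ratio of Ndufv2 to Ndufs1 was 2.71, 2.35 and 2.38 in IP against 0.97, 1.07 and 0.77 in Input, a difference of 1.54 (standard error 0.15). This ratio is taken within a library, so a single scaling factor per library cancels, but factors that differ between genes would not. Some exon bases of Ndufs1 (248 of 2819) are shared with the opposite-strand gene Ino80dos, whose reads cannot be told apart here because no strand setting is given.

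Complex II, which is encoded wholly in the nucleus and also works in the citric acid cycle, showed the same split among 4 genes as deposited. Sdha, the flavoprotein that oxidises succinate, had 15057, 14418 and 16744 in IP against 15564, 15620 and 16620 in Input, and the groups overlapped (log2 fold change -0.05, standard error 0.09, adjusted p = 0.623, 95% interval -0.24 to 0.14). Sdhb, the iron-sulfur subunit, had 18254, 16336 and 15952 in IP against 7490, 7532 and 7150 in Input, a log2 fold change of 1.19 ± 0.08 (SE, adjusted p = 1.4e-07). Every IP library of Sdhb was at least 2 times the highest Input library. The membrane anchors, which bind ubiquinone and haem, rose as well. Sdhd had 12242, 9660 and 11231 in IP against 4967, 4982 and 4975 in Input (1.14), and Sdhc had 5815, 4726 and 5433 in IP against 2653, 2997 and 2731 in Input (0.93). Sdhc no longer passed under pan-neuronal scaling (0.25, adjusted p = 0.0735) or with an offset for coding length (0.14, adjusted p = 0.147). With the coding length offset Sdha passed at 0.24 (adjusted p = 0.013), above Sdhc, while Sdhd lay at 0.30 and Sdhb at 0.82. Within a library, the log2 ratio of Sdhb to Sdha was 0.28, 0.18 and -0.07 in IP against -1.06, -1.05 and -1.22 in Input, a difference of 1.24 (standard error 0.12). The values of Sdhd to Sdha and of Sdhc to Sdha differed by 1.19 and 0.98. These and the other within-library ratios given here, 11 pairs in all, were picked after the values had been seen and are given as descriptions, without a test.

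Complex III rose in all 9 genes, 6 of them more than 2-fold, with a median log2 fold change of 1.68, but its members spread from 0.46 to 2.26. The small subunits stood at the upper end as deposited. Uqcrq, a small subunit next to cytochrome b, had 20599, 14185 and 15960 in IP against 3509, 3413 and 3535 in Input, a log2 fold change of 2.26 ± 0.12 (SE, adjusted p = 2.8e-08). Uqcrh, the hinge protein beside cytochrome c1, had 15708, 11507 and 11967 in IP against 3264, 2948 and 2958 in Input (2.08). Uqcr11, Uqcrb and Uqcr10 followed at 2.07, 1.82 and 1.68, of which Uqcr10 no longer passed with an offset for transcript length (0.07, adjusted p = 0.322). The catalytic subunits with redox groups were lower in this order, with 1.06 for the Rieske iron-sulfur protein gene Uqcrfs1 and 0.94 for the cytochrome c1 gene Cyc1.

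The core proteins of complex III, which face the matrix and hold no redox group, changed least under the deposited values. Uqcrc1 had the highest mean value of the complex over all 6 libraries, though within IP the mean of Uqcr11 (24283) was above that of Uqcrc1 (18320). Uqcrc1 had 19389, 16566 and 19006 in IP against 12085, 13064 and 12550 in Input, a log2 fold change of 0.54 that turned to -0.14 under pan-neuronal scaling. Uqcrc2 had 6114, 5701 and 6157 in IP against 4565, 4140 and 4369 in Input, a log2 fold change of 0.46 that turned to -0.02 under library size scaling and to -0.22 under pan-neuronal scaling. Groups did not overlap for either gene. With an offset for coding length the order differed. Uqcrc1 lay at 0.60 and Uqcrc2 at 0.48, beside 0.60 for Uqcr11 and 0.28 for Uqcr10, while Uqcrq (1.01) and Uqcrh (0.88) stayed highest. With an offset for transcript length Uqcrc1 and Uqcrc2 stayed lowest, at -0.00 and 0.05, beside 0.07 for Uqcr10. The log2 ratio of Uqcrq to Uqcrc2 was 1.75, 1.31 and 1.37 in IP against -0.38, -0.28 and -0.31 in Input, a difference of 1.80 (standard error 0.14). Cycs, the somatic cytochrome c that carries electrons to complex IV, had 44428, 36456 and 38427 in IP against 11031, 10265 and 10228 in Input, a log2 fold change of 1.92 ± 0.09 (SE, adjusted p = 2.0e-08).

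Complex IV divided by isoform. Of its 19 genes, 17 could be tested, 12 rose, all 12 more than 2-fold, and 5 passed in neither direction. The median log2 fold change was 1.57. The forms found in most tissues rose together. Ndufa4, a small subunit of the complex, had 37113, 28510 and 29689 in IP against 6411, 5524 and 5675 in Input, a log2 fold change of 2.43 ± 0.11 (SE, adjusted p = 1.4e-08). It was the highest of the complex and ranked 85 among all 14859 genes tested. Cox4i1, a regulatory subunit that binds ATP, had 37706, 28317 and 29558 in IP against 11031, 10802 and 9894 in Input (1.58). Cox6b1, which faces cytochrome c, had 21096, 16138 and 16741 in IP against 5396, 5072 and 4770 in Input (1.82), and Cox7b had 12731, 9707 and 10034 in IP against 3153, 2583 and 2746 in Input (1.93). Cox7a2 had 16870, 11879 and 12944 in IP against 3600, 3249 and 3086 in Input (2.06). Cox6a1 had 22071, 17146 and 17811 in IP against 8158, 8503 and 7310 in Input, a log2 fold change of 1.24 that turned to -0.17 with an offset for transcript length. Cox8a had 27057, 20704 and 21279 in IP against 9528, 9439 and 7509 in Input, a log2 fold change of 1.38 that turned to -0.06 with that offset. The remaining 4 subunits, Cox5a, Cox5b, Cox6c and Cox7c, lay between 1.57 and 1.91.

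The forms known from other tissues were low in both groups. Cox6a2, the heart and muscle form, had 138.9, 64.7 and 71.0 in IP against 101.2, 132.2 and 136.2 in Input (log2 fold change -0.50, standard error 0.30, adjusted p = 0.157 by limma). IP pool 1 decided this overlap, for without it the log2 fold change was -0.84 with an adjusted p of 0.0134. Cox6b2, the testis form, had 20.7, 28.2 and 15.7 in IP against 26.0, 31.2 and 67.6 in Input (-0.83, standard error 0.46, adjusted p = 0.131). Cox7a1, the heart and muscle form, had 70.1, 32.3 and 55.8 in IP against 36.7, 53.4 and 50.4 in Input (0.12, standard error 0.36, adjusted p = 0.79). Cox7b2, a testis form, had 24.9, 16.1 and 29.0 in IP against 17.4, 14.7 and 5.1 in Input (0.97, standard error 0.58, adjusted p = 0.158). Cox4i2, best known from lung, had 24.7, 9.2 and 11.1 in IP against 1.8, 25.8 and 22.3 in Input (0.30, standard error 0.84, adjusted p = 0.773). All 5 had overlapping groups, and values this low leave wide intervals, from -1.53 to 2.13 for Cox4i2. Cox8b, the muscle form, had 0.0, 2.3 and 26.6 in IP against 0.0, 3.7 and 25.7 in Input and was too low for the test, and the testis form Cox8c was listed at 0 in all 6 libraries. Ndufa4l2, the hypoxia-induced paralog of Ndufa4, had 50.6, 53.6 and 45.9 in IP against 21.5, 18.6 and 15.4 in Input (1.40, standard error 0.37, adjusted p = 0.00555). It no longer passed under pan-neuronal scaling (0.74, adjusted p = 0.105) or with the offset for transcript length (0.34, adjusted p = 0.441) or coding length (0.18, adjusted p = 0.699).

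**Figure D3:**
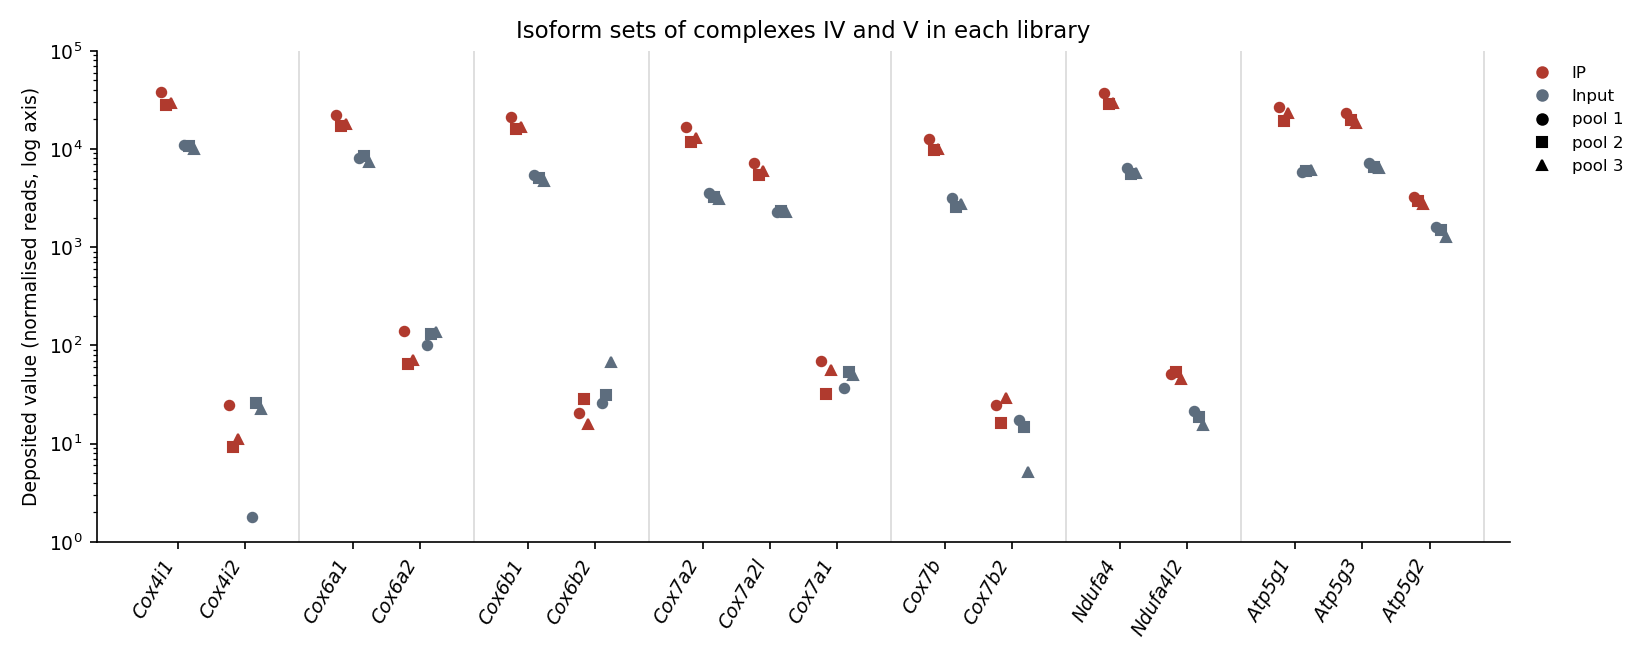
Deposited value (normalised reads, log axis) of each member of 7 isoform sets in each library, IP left of Input, with symbols for the pools. The common form of each complex IV set separates IP from Input, and Cox4i2, Cox6a2, Cox6b2, Cox7a1, Cox7b2 and Ndufa4l2 lie at 138.9 or lower, of which only Ndufa4l2 separates the groups.

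Per kilobase of the longest annotated transcript, the common form held most of each isoform set in both groups. Cox4i1 made up 99.9% to 100.0% of its set in IP and 99.8% to 100.0% in Input. Cox6a1 made up 99.5% to 99.7% of Cox6a in IP and 98.5% to 99.0% in Input, and Cox6b1 made up 99.8% to 99.9% of Cox6b in IP and 98.5% to 99.5% in Input. In these last sets every IP library lay above every Input library. In the Cox7a set, Cox7a2 made up 79.7%, 78.6% and 78.3% in IP against 72.4%, 69.5% and 68.8% in Input. Cox7a2l, a related protein that helps to join complexes III and IV into supercomplexes and is no fixed subunit, made up 19.9%, 21.1% and 21.2% in IP against 26.6%, 29.0% and 29.7% in Input, while its own value rose, with 7217, 5452 and 6005 in IP against 2260, 2320 and 2284 in Input (log2 fold change 1.43).

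Complex V, the ATP synthase, rose in all 17 genes, 15 of them more than 2-fold, with a median log2 fold change of 1.68 and a range of 0.41 to 2.48. The 5 small subunits of the membrane part had a median of 2.19, from 1.79 for Atp5j2 upward. Usmg5, which helps ATP synthase to form dimers, had 20138, 15057 and 14597 in IP against 3417, 2921 and 2573 in Input, a log2 fold change of 2.48 ± 0.13 (SE, adjusted p = 3.1e-08), the highest of the whole set and rank 78 among all genes tested. Atp5l, subunit g at the dimer interface, had 16271, 12728 and 12797 in IP against 3017, 2932 and 2948 in Input (2.22). Summed, these small membrane subunits took 0.187% to 0.233% of values in IP against 0.0576% to 0.0664% in Input, a ratio of 3.33. The 4 genes of the peripheral stalk, which holds the catalytic head still, had a median of 1.67, with Atp5f1 lowest at 1.19.

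The catalytic head of ATP synthase, F1, moved less. The median of its 5 genes was 1.10, and their summed share was 0.527% to 0.541% in IP against 0.464% to 0.474% in Input, a ratio of 1.14. The distance to the small membrane subunits was smaller with the length offsets. Medians of F1 and of those subunits were 0.64 and 0.85 with the offset for coding length, and 0.46 and 0.76 with that for transcript length. Atp5b, the catalytic beta subunit and the member with the highest values, had 58189, 55057 and 56329 in IP against 42928, 42709 and 41648 in Input. The groups did not overlap, yet its log2 fold change of 0.41 ± 0.08 (SE, adjusted p = 8.2e-04) turned to -0.07 under library size scaling and to -0.27 under pan-neuronal scaling. Atp5a1, the alpha subunit that alternates with beta in the head, had 34522, 32654 and 32433 in IP against 22460, 22067 and 23749 in Input, a log2 fold change of 0.55 that turned to -0.14 under pan-neuronal scaling. Atp5c1 and Atp5d, of the rotating central stalk, lay at 1.10 and 1.44, and the small epsilon subunit gene Atp5e at 2.08. The log2 ratio of Atp5l to Atp5b was -1.84, -2.11 and -2.14 in IP against -3.83, -3.86 and -3.82 in Input, a difference of 1.81 (standard error 0.10).

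The rotor ring of ATP synthase is built from subunit c, and 3 genes encode the same mature protein behind different import signals. Atp5g1 had 26718, 19322 and 23090 in IP against 5786, 6009 and 6097 in Input (log2 fold change 1.94), and Atp5g3 had 23188, 19862 and 18421 in IP against 7221, 6595 and 6415 in Input (1.60). Atp5g2 had 3265, 2920 and 2722 in IP against 1588, 1486 and 1265 in Input, and its log2 fold change of 1.04 turned to -0.20 with an offset for transcript length. Groups did not overlap for any of them. Within a library, the log2 ratio of Atp5g1 to Atp5g2 was 3.03, 2.73 and 3.08 in IP against 1.86, 2.01 and 2.27 in Input, and that of Atp5g3 to Atp5g2 was 2.83, 2.77 and 2.76 in IP against 2.18, 2.15 and 2.34 in Input. Atp5g2 thus held 5.84% to 6.6% of the set per kilobase of coding sequence in IP against 8.75% to 10.4% in Input. Per kilobase of the longest transcript it held 10.6% to 11.2% in IP against 14.5% to 16.4% in Input. The shares depend on the length used. In IP, Atp5g1 held 46.9% to 53.2% of the set by coding sequence and 11.5% to 14.4% by transcript.

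Among the names that are no subunit, Atp5s, coupling factor B, lay at 0.86 with a standard error of 0.10, and at 0.18 under pan-neuronal scaling, where it no longer passed (adjusted p = 0.214). Ndufb4c, a processed copy of Ndufb4, had 1126, 776.7 and 796.2 in IP against 226.6, 171.5 and 145.3 in Input (2.31). Reads of near-identical copies may have been split between the gene and the copy, so the values of Ndufb4c and of other members with such copies are uncertain. Apart from this, 15 of the 88 genes share at least 50 exon bases with another gene, mostly on the opposite strand, among them Uqcrc2 with Pdzd9, Atp5f1 with Wdr77 and Ndufa13 with Tssk6.

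Fold changes were smaller for members with longer coding sequences. Across the 85 tested genes with an annotated coding sequence, the log2 fold change and log10 of the longest coding length had a Pearson correlation of -0.57 and a Spearman correlation of -0.62, given as a description because genes are measured in the same libraries and are not independent. The Pearson value was -0.77 over the 35 genes of complex I, -0.94 over the 9 of complex III and -0.91 over the 17 of complex V. Over all 13983 tested genes with a coding length it was -0.39. The set is short, with a median coding length of 408 bases against 1407 bases for all genes tested. Ndufs1 (2181 bases) and Sdha (1992 bases), the members of complexes I and II that passed in neither direction, have the longest coding sequences of the set. An exception is Ndufv3, with a log2 fold change of 2.10 at an annotated longest coding length of 1404 bases, and the longest annotated form is not necessarily the one expressed.

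Within bands of coding length the set lay above the other tested genes. Up to 300 bases its median was 1.88 over 24 genes, against 1.15 over 236 other genes. From there up to 600 bases it was 1.69 over 40 genes, against 0.88 over 1451. Up to 1200 bases it was 1.14 over 12 genes, against 0.33 over 3921, and up to 2400 bases it was 0.54 over 9 genes, against -0.19 over 5212. Both the set and the other genes thus had lower medians in each longer band. In these bands 87.5%, 95%, 100% and 77.8% of the set were higher in IP, against 70.3%, 64.7%, 47.5% and 21.9% of the other genes. What gives rise to the relation with length was not tested.

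**Figure D4:**
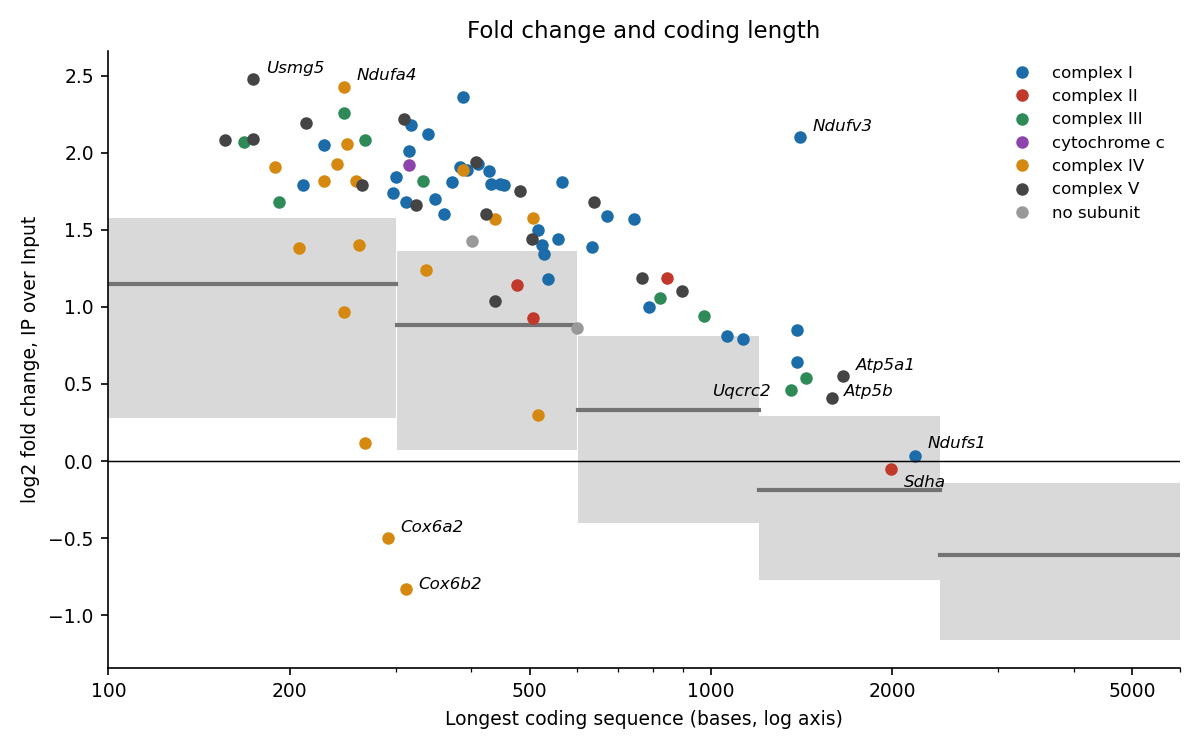
Log2 fold change of IP over Input (y axis) against the longest annotated coding sequence in bases (x axis, log axis) for the 85 tested members with one, coloured by complex; grey bars and boxes are the median and the quartiles of all other tested genes in 5 bands of length. The members fall with length, as the other genes do, and their medians in the first 4 bands (1.88, 1.69, 1.14 and 0.54) lie above those of the other genes (1.15, 0.88, 0.33 and -0.19).

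An offset that removed the relation with transcript length from each library left 66 of the 86 genes higher, 12 of them more than 2-fold, and 4 lower. The set's median was 0.49 against -0.02 for all genes tested. Over all 14727 genes in that fit, 4221 were higher, 926 of them more than 2-fold, and 3969 were lower. The 4 lower members were Cox6a1, Cox6a2, Cox6b2 and Cox7a1. The same offset on coding length, which was added after the values had been seen, left 76 of 85 higher, 12 more than 2-fold and 3 lower, with a median of 0.68. Over all 13983 genes in that fit, 4341 were higher, 759 of them more than 2-fold, and 3948 were lower. With coding length, Ndufs1 passed at 0.38 (adjusted p = 0.00152) and Sdha at 0.24 (adjusted p = 0.013). The medians by complex were then 0.79, 0.27, 0.68, 0.51 and 0.71 for complexes I to V, so that complex II stayed lowest. Core and supernumerary subunits of complex I had medians of 0.79 and 0.78 with the offset on coding length, and of 0.31 and 0.60 with that on transcript length.

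The number of calls also rested on the scaling. Under the deposited values IP libraries had larger totals than Input libraries, and with all libraries set to the same total the median of all genes moved from -0.06 to -0.54. Over all genes, 4671 were higher and 4787 lower (49.4% of calls higher) as deposited, and 2577 and 7886 (24.6%) at equal totals, 3629 and 6261 (36.7%) on the upper quartile and 1707 and 8941 (16%) on the pan-neuronal genes. At equal totals 75 of the 86 members were higher, 51 of them more than 2-fold, and 4 were lower, namely Ndufs1, Sdha, Cox6a2 and Cox6b2. On the pan-neuronal genes 68 were higher, 40 of them more than 2-fold, and the same 4 and Atp5b were lower. Over all 14859 genes, 671 were more than 2-fold higher at equal totals and 414 on the pan-neuronal genes. Relative to the median of all genes, the set's median was 1.73 as deposited and 1.72 under both of these scalings. A single factor per library shifts all genes alike, so this distance could not change except through the pseudocount.

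**Figure D5:**
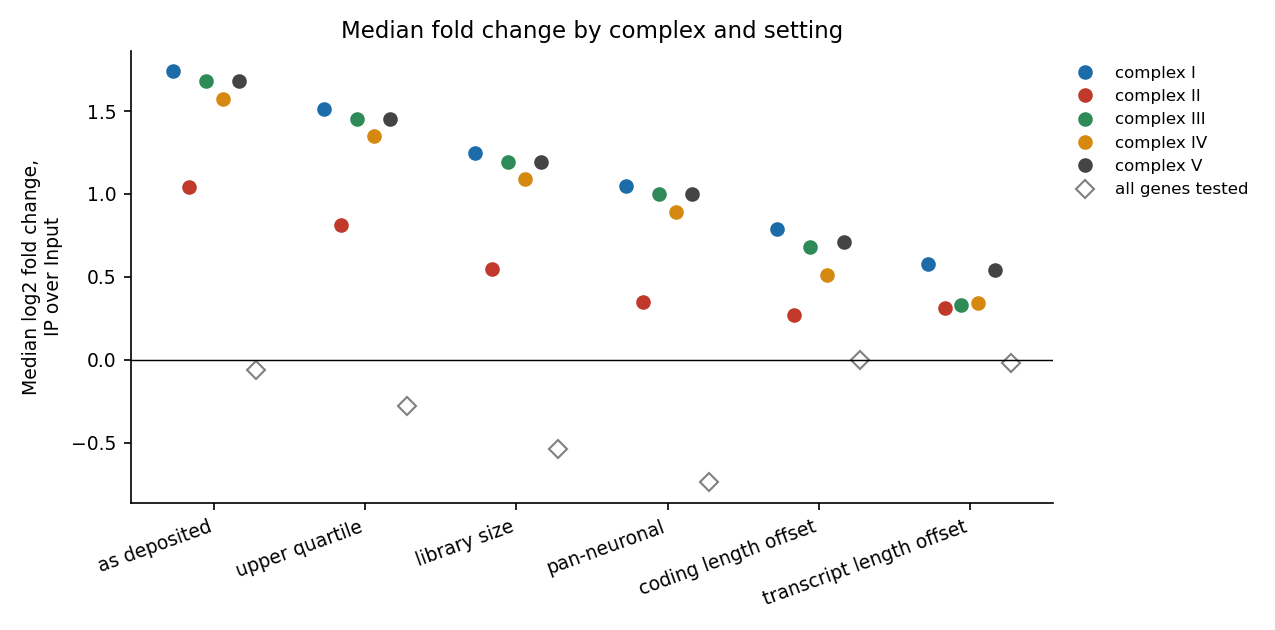
Median log2 fold change of IP over Input (y axis) of each complex and of all genes tested (open diamonds) under the deposited scaling, 3 other scalings and 2 length offsets (x axis). The scalings move the complexes and all genes down together, and the offsets lower the complexes to between 0.27 and 0.79 while the median of all genes stays near 0.

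All 3 pools showed the difference. The median log2 ratio of IP to Input over the 86 genes was 1.84 in pool 1, 1.49 in pool 2 and 1.66 in pool 3, and that of all genes tested lay between -0.05 and -0.03. IP exceeded Input in all 3 pools for 80 of the 86 genes. That count was not taken over all genes tested, of which 34.2% had every IP library above every Input library. The first IP library was the highest of the 3 for 80 of the 86 members, against 6189 of 14859 genes tested. Without it the median was 1.55, with 79 members higher, 1 lower and 65 more than 2-fold higher. The 1 lower member was Cox6a2.

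Genes that work with the chain were counted beside the 31.4% higher and 32.2% lower among all genes tested. Of 43 tested assembly factors, which help to build the complexes, 39 were higher and 1 was lower, with a median log2 fold change of 0.96. Coa3 and Cox17, both needed for complex IV, had 1.98 and 1.67, and the lower gene was Coa5, another complex IV factor, at -0.40 (adjusted p = 0.00217). These counts rested on the scaling, with 29 higher and 4 lower at equal library totals, 20 and 6 on pan-neuronal genes (median 0.28), and 30 and 0 with the transcript length offset (median 0.35), where Coa5 lay at -0.12. Of 10 genes that handle ATP, 9 were higher, with a median of 0.84. On pan-neuronal genes 4 were higher and 1 lower (median 0.16), and with the transcript length offset 6 were higher and 1 lower (median 0.25). Atpif1, the inhibitor of ATP synthase, had 23002, 15885 and 17446 in IP against 4406, 4446 and 3805 in Input (log2 fold change 2.14), and Slc25a4, the ADP/ATP carrier, had 60266, 51690 and 55417 in IP against 26769, 26871 and 26584 in Input (1.06). Ckb, the cytosolic creatine kinase, overlapped between groups at 0.01 (adjusted p = 0.949).

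Other enzymes that feed electrons to ubiquinone went both ways. Of 7 tested, 2 were higher, 3 were lower and 2, Etfa and Etfdh, passed in neither direction, which is near the shares of all genes tested. At equal library totals 2 were higher and 5 lower, and with the transcript length offset 1 was higher and 5 were lower. Dhodh, of pyrimidine synthesis, and Etfb, of fatty acid oxidation, had 1.07 and 1.04, though Etfb turned to -0.04 with the transcript length offset. Lower were Gpd2 of the glycerol phosphate shuttle at -0.81, Prodh of proline breakdown at -1.85 and Chdh of choline oxidation at -2.42. Prodh had 91.9, 97.1 and 86.5 in IP against 341.6, 401.0 and 271.2 in Input.

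Among genes for the regulators of respiratory chain transcription, 3 of 13 were higher and 5 lower, again near the shares of all genes tested. The counts were 2 and 8 at equal library totals, 1 and 9 on pan-neuronal genes and 5 and 4 with the transcript length offset. Lower as deposited were the 3 coactivators of the PGC-1 family, the GABP subunit gene Gabpb2 (-1.19) and the mitochondrial RNA polymerase gene Polrmt (-0.69). Ppargc1a had 449.0, 472.2 and 421.5 in IP against 939.7, 823.0 and 939.9 in Input (log2 fold change -1.01, standard error 0.12, adjusted p = 8.1e-06), Ppargc1b lay at -1.69 and Pprc1 at -2.01. With the transcript length offset they lay at -0.53, -1.45 and -1.56. Nrf1, whose letters were searched above, had 550.7, 534.0 and 557.4 in IP against 553.0, 578.7 and 691.2 in Input, with overlapping groups (-0.14, adjusted p = 0.322). Higher were Yy1 at 1.18, Esrra at 0.82 and the mitochondrial DNA packaging factor Tfam at 0.49, of which Tfam lay at 0.01 under library size scaling and with the coding length offset.

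Ribosomal protein genes gave the nearest comparison for short, abundant transcripts. All 78 mitochondrial ribosomal protein genes were higher in IP, 60 of them more than 2-fold, with a median log2 fold change of 1.29. Of 84 tested cytosolic ribosomal protein genes 83 were higher, 80 of them more than 2-fold, with a median of 1.72. Rpl3l, a muscle form, passed in neither direction, and Rpl10a was left out because the virus carries its coding sequence. Their summed shares had ratios of 1.78 and 2.23 of IP to Input, beside 1.89 for the respiratory chain. More than 2-fold higher at equal library totals were 24 mitochondrial and 62 cytosolic ribosomal protein genes, and on pan-neuronal genes 11 and 45. With the transcript length offset these were 19 and 19, with medians of 0.50 and 0.64 beside 0.49 for the chain, and with the coding length offset 7 and 27. The difference between these sets was not tested.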

How the data were processed

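RNA of IP and Input was measured in 3 pools of mice each. For every gene the authors deposited 1 signal value per library, a read count divided by DESeq2 factors. STAR, DESeq2 and the build mm10 are named in the submitters' processing notes. Versions, the counting program, its annotation and its strand setting were not given in the sources used here, and the TopHat and Cufflinks of the methods made another table. Of 24972 entries, 26 that bear a date in place of a symbol (0.188% to 0.32% of values) were left out. No value column was left unused (0). With the most common positive value of a library taken as the worth of 1 read, libraries would stand for about 9320000 to 11020000 reads. Only 14.9% to 38.2% of values under 20 reads were whole multiples of it within 0.01. A single worth of 1 read thus did not hold for all genes, and the factors may differ between genes. The depths are therefore rough, and no count model was run.

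A pseudocount of 1 was added, log2 taken, and the difference of IP and Input fitted by limma 3.58.1 under R 4.3.3 with a variance trend (8.55 prior degrees of freedom) and Benjamini-Hochberg adjustment over 14859 genes reaching 10 in at least 3 of 6 libraries. Fold changes are on this scale, which understates low genes. Factors for trimmed means of M values (TMM) were computed on the deposited values. Figures were drawn with matplotlib 3.10.9. The code was tested on simulated data.

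Input was saved from each pool before the IP, so the numbers pair libraries by the methods. Deviations from group means correlated at 0.109, 0.095 and 0.0992 for the same number and at -0.0826 to -0.0133 otherwise. The study names no pairing term, and the block was an alternative, beside other scalings, filters, pseudocounts, length offsets and leaving out libraries or pools.

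Members and lists were chosen with earlier results of these data known. Named with every library's value were, per complex, the gene of highest level and those with the 2 largest and 2 smallest changes, genes that passed in neither direction, isoform sets, core subunits of complex I and complex II. A gene that this rule takes is not reported here by name. Others named were chosen after their values were seen. Lengths and overlaps come from GENCODE M21 (mm10), which held all 88 members.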

Additional observations from a re-analysis of the deposited data

How the results depend on the processing

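Direction and call of the set were the same with another pseudocount (0.5 or 10), the other filters, limma without its trend, or any 1 library or pool left out, except as given here. With the pool number as a replicate block, 79 of 86 genes were higher, 0 lower and 68 more than 2-fold higher, with a median of 1.67, and the pairing changed no call of a named gene. Leaving out 1 library gave 0 to 1 lower members, and leaving out pool 1 gave 1, in both cases Cox6a2. Low values limit Cox4i2, Cox6b2, Cox7a1 and Cox7b2 most. The cause of each change below was not tested.

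Members lower in IP numbered 4 at equal library size, 2 on the upper quartile (Sdha and Cox6a2), 5 on pan-neuronal genes, 3 with the coding length offset (Cox6a2, Cox6b2 and Cox7a1) and 4 with the transcript length offset. More than 2-fold lower were 1 at library size, 2 on pan-neuronal genes and 3 with either offset. More than 2-fold higher were 40 on pan-neuronal genes and 12 with either offset. The median of the set and of complexes I to V was 1.19, 1.25, 0.55, 1.19, 1.09 and 1.19 at library size; 1.44, 1.51, 0.81, 1.45, 1.35 and 1.45 on the upper quartile; 0.99, 1.05, 0.35, 1.00, 0.89 and 1.00 on pan-neuronal genes; 0.68, 0.79, 0.27, 0.68, 0.51 and 0.71 with the coding length offset. With the transcript length offset it was 0.49, 0.58, 0.31, 0.33, 0.34 and 0.54, and the replicate block with that offset gave the same counts and medians.

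Calls and signs were followed for the 39 genes named by rule. Of these, calls were lost with the sign kept at library size for Atp5a1 (0.06) and Uqcrc1 (0.06). On pan-neuronal genes they were lost for Ndufa4l2 (0.74), Ndufv1 (0.17) and Sdhc (0.25). With the transcript length offset they were lost for Atp5b (0.01), Ndufa4l2 (0.34), Ndufs3 (0.04) and Uqcrc2 (0.05). With the coding length offset they were lost for Atp5g2 (0.14), Cox8a (0.03), Ndufa4l2 (0.18) and Sdhc (0.14). Genes outside these 39 that lost their call on pan-neuronal genes included Ndufa9 (0.11), Ndufa10 (0.13) and Atp5s (0.18). With the transcript length offset they included Ndufa9 (0.12), Ndufb10 (0.10), Uqcr10 (0.07) and Ndufb9, whose sign turned (-0.09). Among the 39, the sign turned for these genes. At library size: Atp5b -0.07, Cox4i2 -0.14, Cox7a1 -0.36, Ndufs1 -0.45 and Uqcrc2 -0.02. On pan-neuronal genes: Atp5a1 -0.14, Atp5b -0.27, Cox4i2 -0.33, Cox7a1 -0.55, Ndufs1 -0.65, Uqcrc1 -0.14 and Uqcrc2 -0.22. On the upper quartile: Cox7a1 -0.10 and Ndufs1 -0.20, and with TMM Ndufs1 -0.00. With the transcript length offset, with or without the block: Atp5g2 -0.20, Cox4i2 -0.94, Cox6a1 -0.17, Cox7a1 -1.41, Cox7b2 -0.49, Cox8a -0.06, Ndufs1 -0.06 and Uqcrc1 -0.00. With the coding length offset: Cox4i2 -0.48, Cox7a1 -1.09, Cox7b2 -0.28 and Sdha 0.24. Without pool 1: Cox4i2 -1.17 and Cox7a1 -0.28, and without pool 2 Ndufs1 -0.03. Leaving out 1 library at a time, Cox4i2 ranged from -0.76 to 0.88, Cox7a1 from -0.12 to 0.43 and Ndufs1 from -0.04 to 0.10.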
